A study of Gallus gallus with 28 samples.

Results

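BF2, B2M, TAP1, TAP2, CD74 and CIITA are 6 genes of the machinery with which cells display peptides to T cells. Their transcripts were followed in chick intestine around hatch. They were chosen by symbol in the probe annotation, with earlier results of these data known, and are 6 of the 13009 genes with a symbol of their own. Together they have 16 probe sets of the 38535 on the array, 12 of which passed the filter on low values.

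RNA was measured on 28 Affymetrix chicken arrays, 4 at each of 7 ages: embryonic day 18 (e18) and 20 (e20), hatch day, and d1, d3, d7 and d14, counted in days from hatch. All birds were male, the labels name no treatment, and each age drew on intestinal segments of 6 birds. The design text names 2 lines of birds, A and B, and 2 pools, but no array carries its line or pool, so neither entered a fit and the p-values measure the spread between arrays, which may be partly technical. The source labels read chick intestine and name no part of it. The age means of all 7 tested markers of intestinal epithelium lay above background at every age. The mean over the 7 was 10.27 at e18 and between 11.60 and 12.22 afterwards.

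MHC class I molecules are found on nearly all nucleated cells and show peptides made inside the cell to cytotoxic T cells. BF2 encodes the heavy chain of the dominantly expressed chicken class I molecule, B2M its light chain beta-2-microglobulin, and TAP1 and TAP2 both subunits of the transporter that carries peptides into the endoplasmic reticulum. MHC class II molecules are found mainly on dendritic cells, macrophages and B cells and show peptides from material taken up. CD74 encodes the invariant chain that guards and guides class II molecules on their way to the endosome, and CIITA the coactivator that switches class II genes on. In mammals, gut epithelium also makes class II molecules under interferon-gamma, and the chicken MHC is known for being compact, with the TAP genes lying between its class I genes.

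Values are log2 intensities, and a change is the later age minus the earlier one on that scale. A gene was tested where its brightest probe set exceeded a log2 value of 4 in at least 4 arrays. It is said to have risen or fallen where limma's adjusted p, over the 8396 genes tested, was under 0.05. Background, the 95th percentile of 541 control probe sets, lay between 2.97 and 3.54 over the arrays. The e18 arrays stood apart from the rest: 7 of 7 tested exocrine pancreas markers fell between e18 and e20, with a summed intensity of 42.9 to 422 at e20 against 53383 to 67647 at e18. Both tested erythroid genes fell as well. Comparisons with e20 are therefore given beside those with e18.

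BF2, B2M, TAP1, TAP2 and CD74 were higher at d14 than before hatch. Between d14 and e20, 5 of these 5 rose, where 27.2% of all tested genes were called higher, and their median change was 3.67 against −0.13 over all genes. In each of the 5, every d14 array lay above every e20 array, which held for 24.6% of genes, and every d7 and d14 array lay above every e18, e20 and hatch array, which held for 10.2%. Between d14 and e18, 5 of 5 rose as well, against 33.2% of all genes. CIITA is described apart from these counts, because it passed the filter only through the ages at which it was high. On their brightest probe sets the 4 class I genes had made 29.6% to 52.8% of their e20 to d14 log2 rise by d1, against 7.51% for CD74. By d3 the shares were 71.6% to 88.8%, against 52.4% for CD74. The brightest CIITA probe set was still below background at d3. In whole-tissue RNA, more cells of a type and more RNA per cell cannot be told apart.

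**Figure D1:**
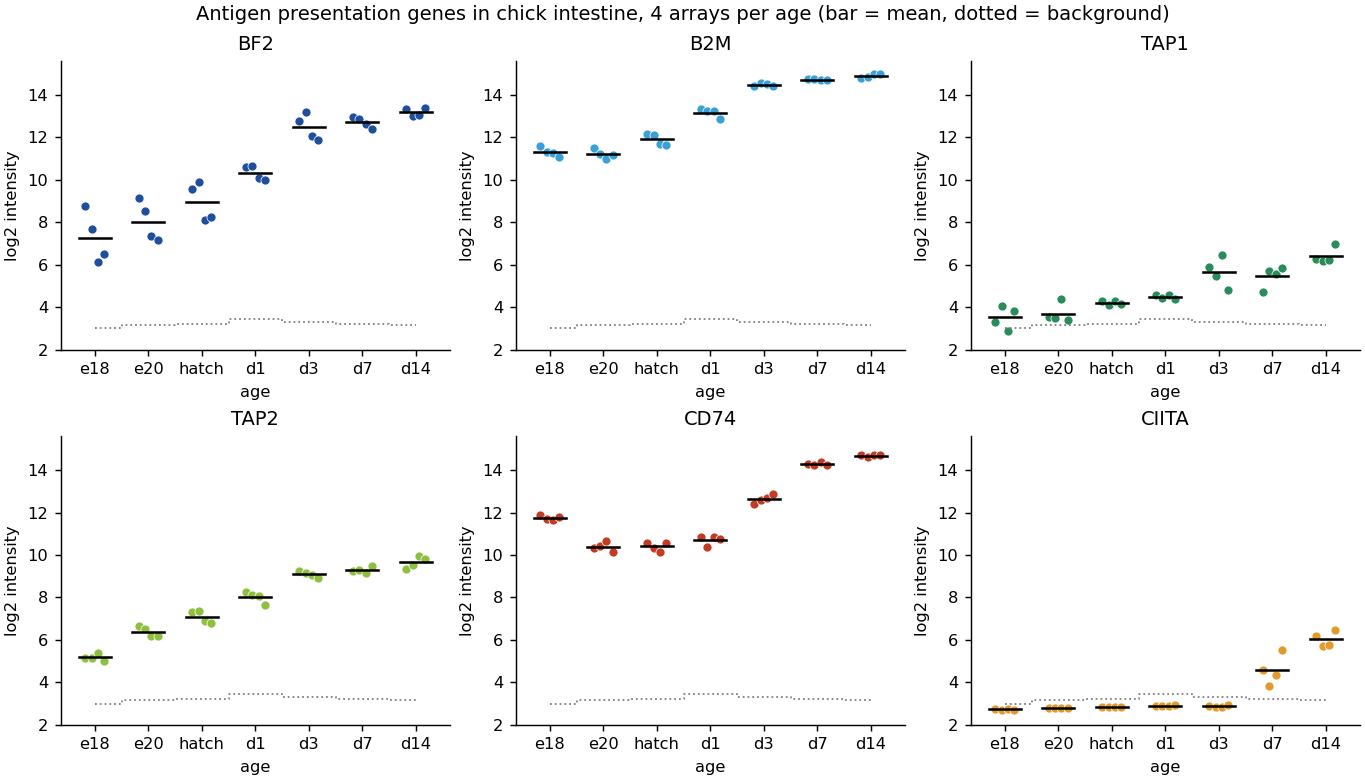
Log2 intensity (vertical axis) of the brightest probe set of each gene on each of the 4 arrays at 7 ages (horizontal axis). Points are arrays in record order, bars are means and the dotted line is background. BF2, B2M and TAP2 climb through hatch and change little after d3, TAP1 is highest at d14, CD74 is higher at e18 than at e20 to d1 and highest at d7 and d14, and CIITA leaves background at d7.

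BF2, the heavy chain gene, had the largest change between d14 and e20 among the brightest probe sets of the 5 genes measured above background at both ages, an order that other probe sets did not keep. BF2 (gene ID 425389) read 8.78, 7.67, 6.15 and 6.50 on the 4 arrays at e18, and 9.13, 8.52, 7.34 and 7.15 at e20. On the day of hatch it read 9.59, 9.89, 8.09 and 8.23. At these ages its arrays differed widely, with an SD of 1.20 at e18, and neighbouring ages overlapped, so the steps to e20 (0.76 ± 0.49 SE, limma adjusted p = 0.196) and to hatch (0.92 ± 0.49, adjusted p = 0.133) were not called.

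From d1 on, BF2 was higher and tighter. It read 10.61, 10.67, 10.11 and 9.98 at d1, all above the hatch arrays, and 12.79, 13.20, 12.08 and 11.87 at d3, all above those of d1. The step to d3, 2.14 ± 0.49 (4.42-fold, adjusted p = 0.00204), was called. At d7 it read 12.97, 12.86, 12.65 and 12.39 and at d14 13.33, 12.99, 13.04 and 13.38, and neither of these last steps was called. Between d14 and e20 it rose by 5.15 ± 0.49, or 35.5-fold (adjusted p = 1.56e-09). The step from hatch to d1 (1.39 ± 0.49, adjusted p = 0.0285) was called with all arrays, but lost the call without any 1 of hatch arrays 3 and 4 or d1 arrays 1 and 2, where its adjusted p lay between 0.0677 and 0.109. With the mean of all BF2 probe sets it was 0.44 (adjusted p = 0.188), and the whole change between d14 and e20 was 2.80.

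The spread of BF2 followed the order of the sample records. At 6 of the 7 ages, all but d14, arrays 1 and 2 both read higher than arrays 3 and 4. The same held at 4 ages for B2M and at 4 for TAP2, at 1 for CIITA, and at 0 for TAP1 and 0 for CD74. The opposite order, arrays 1 and 2 both below arrays 3 and 4, held at 1 age each for B2M, TAP2, CD74 and CIITA. The share of all genes with this order was not computed, so the counts cannot be called particular to these genes. Array numbers only follow the records, and the part of line or pool was not tested.

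B2M, the light chain shared by all class I molecules, was already bright before hatch and moved with little scatter. It read 11.58, 11.34, 11.29 and 11.09 at e18 and 11.51, 11.24, 11.01 and 11.18 at e20, which overlapped (−0.09 ± 0.12, adjusted p = 0.563). At hatch it read 12.15, 12.13, 11.69 and 11.66, all above e20 (0.67 ± 0.12, adjusted p = 0.000125), but with the mean of the B2M probe sets this step was not called (0.24, adjusted p = 0.162). At d1 the arrays read 13.36, 13.23, 13.23 and 12.87, a further 1.27 ± 0.12 (adjusted p = 9.70e-08). At d3 they read 14.44, 14.55, 14.54 and 14.45, another 1.32 ± 0.12 (adjusted p = 4.09e-08).

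After d3 the brightest B2M probe set changed little. The arrays read 14.73, 14.76, 14.71 and 14.71 at d7 and 14.81, 14.85, 14.98 and 14.99 at d14. Each age lay above the one before, but by 0.23 ± 0.12 and 0.18 ± 0.12, which were not called (adjusted p = 0.227 and 0.700). The brightest probe set of any gene reached 15.19 to 15.59 on these arrays, so B2M at d7 and d14 was near the top of the measurable range and a further rise could be understated. From e20 to d14 the whole rise was 3.67 ± 0.12, or 12.8-fold (adjusted p = 1.27e-17).

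TAP2 (gene ID 427728) was the only class I gene of the 6 that was called already between e18 and e20. It read 5.13, 5.13, 5.40 and 5.02 at e18 and 6.67, 6.53, 6.20 and 6.17 at e20, without overlap, a rise of 1.22 ± 0.16 (adjusted p = 4.37e-07). At hatch it read 7.33, 7.35, 6.91 and 6.77 and at d1 8.23, 8.10, 8.09 and 7.65, steps of 0.70 ± 0.16 and 0.93 ± 0.16 that were both called (adjusted p = 0.000857 and 6.76e-05).

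By d3 TAP2 had neared its final level. The arrays read 9.24, 9.14, 9.05 and 8.91 at d3, all above d1 (1.07 ± 0.16, adjusted p = 1.94e-05). The readings of 9.23, 9.27, 9.15 and 9.48 at d7 overlapped with those of d3 and with the 9.35, 9.51, 9.97 and 9.81 of d14, and neither step was called. TAP2 was 9.64-fold higher at d14 than at e20 and 22.5-fold higher than at e18.

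TAP1 (gene ID 427727), whose gene lies next to TAP2, had a dim probe set with more scatter. It read 3.30, 4.07, 2.88 and 3.82 at e18 and 3.54, 3.48, 4.37 and 3.38 at e20, close to background. At hatch it read 4.30, 4.10, 4.30 and 4.13 and at d1 4.57, 4.44, 4.58 and 4.41, and no step up to d1 was called. At d3 it read 5.89, 5.46, 6.44 and 4.79, all above d1 (1.15 ± 0.30, 2.21-fold, adjusted p = 0.00615). The d7 readings of 4.70, 5.72, 5.58 and 5.85 overlapped with d3, and those of d14, 6.27, 6.20, 6.24 and 6.96, lay above d7 without a call (0.95 ± 0.30, adjusted p = 0.163). Over the whole span from e20 to d14 it rose by 2.72 ± 0.30 (6.61-fold, adjusted p = 1.79e-08).

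CD74 fell before it rose. On its brightest probe set it read 11.87, 11.72, 11.66 and 11.78 at e18, and 10.34, 10.43, 10.65 and 10.15 at e20. The e20 arrays were all below those of e18 (−1.36 ± 0.12, adjusted p = 5.60e-10). At hatch it read 10.58, 10.35, 10.15 and 10.55 and at d1 10.84, 10.39, 10.86 and 10.77, and these ages overlapped with each other. The step from hatch to d1 (0.31 ± 0.12, adjusted p = 0.0410) was called, but not without 1 of hatch arrays 2 and 3 or d1 arrays 1, 3 and 4 (adjusted p = 0.0866 to 0.168), nor without the e18 arrays (0.0502).

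From d1 CD74 climbed in large steps. It read 12.40, 12.59, 12.71 and 12.86 at d3 (1.92 ± 0.12 over d1, 3.79-fold, adjusted p = 1.60e-11) and 14.28, 14.23, 14.36 and 14.26 at d7 (1.65 ± 0.12 over d3, adjusted p = 4.92e-10). The d14 arrays read 14.70, 14.62, 14.69 and 14.69, above those of d7 but not called (0.39 ± 0.12, adjusted p = 0.130) and near the top of the range. Against e20 the d14 level was 19.5-fold higher (4.28 ± 0.12, adjusted p = 3.50e-19), and against e18 it was 7.56-fold higher (2.92 ± 0.12).

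CIITA (gene ID 416633) was, on its brightest probe set, below background at every age up to d3, where the readings ran from 2.69 to 2.95. It passed the filter only through d7 and d14, so that it had to differ between ages. At d7 it read 4.57, 3.84, 4.34 and 5.51, and it was at least 2.40-fold higher than at d3 (adjusted p = 4.10e-06). At d14 it read 6.19, 5.69, 5.76 and 6.44, all above d7 (1.46 ± 0.20, 2.74-fold, adjusted p = 0.000177), and at least 7.33-fold above e20 (adjusted p = 1.10e-12). At the step from d7 to d14, when 0.405% of all genes rose, limma called 0 of the other 5 genes on their brightest probe sets, though 3 of the 5 had an unadjusted p under 0.05.

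**Figure D2:**
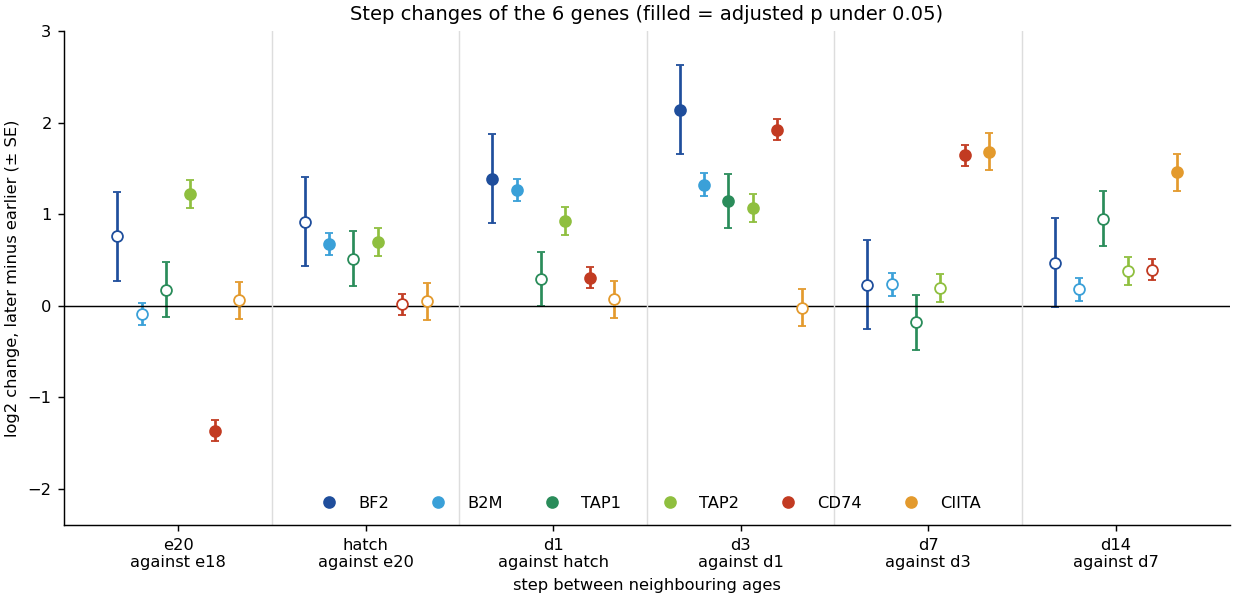
Log2 change (vertical axis, later minus earlier age, ± SE from the limma fit on 28 arrays) of the 6 genes at each of the 6 steps between neighbouring ages (horizontal axis). Filled points have an adjusted p under 0.05. All 4 class I genes and CD74 are filled at the step to d3. The class I genes are open after it, while CD74 and CIITA are filled at the step to d7.

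Counted step by step, TAP2 rose and CD74 fell from e18 to e20, when the test called 29.2% of all genes up and 25% down. Of the 5 genes other than CIITA, 2 rose at hatch against e20 (19.2% of all genes), 4 at d1 against hatch (12.5%), and 5 at d3 against d1 (15%). At d7 against d3, 1 of the 5 rose, CD74 (5.07%). The moderated F-test over all ages called 5 of 5, but also 90.1% of all genes.

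On the brightest probe sets, the timing can be read as the share of the log2 change between e20 and d14 that was reached at each age. By d1 B2M had covered 52.8% of it, TAP2 49.7%, BF2 44.8% and TAP1 29.6%. CD74 had covered 7.51% by then, and the CIITA probe set was below background. By d3 the shares were 88.8% for B2M, 86.4% for BF2, 82.4% for TAP2 and 71.6% for TAP1, against 52.4% for CD74. By d7 CD74 had reached 90.8%, beside 95.1% for B2M, 90.9% for BF2 and 88.4% for TAP2. TAP1 stood at 65.0%, below its share at d3. No share is given for CIITA, whose e20 level was below background. Other class I probe sets did not all rise early. The second brightest of BF2 averaged 2.87 at e20 and 3.35 at d1, both below background, 5.43 at d3 and 7.32 at d14. The dimmest of B2M was below background up to d1. The second brightest of B2M averaged 4.66 at e20, 6.27 at d1, 7.51 at d3 and 8.15 at d14.

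The changes of CD74 and the class I genes were set side by side at 3 pairs of ages, as values without a test, since the ages were picked for the pattern already seen. Between e20 and e18 CD74 changed by −1.36, against −0.09 for B2M, 0.18 for TAP1, 0.76 for BF2 and 1.22 for TAP2. Between d3 and d1 the change was 1.92 for CD74, 2.14 for BF2, 1.32 for B2M, 1.15 for TAP1 and 1.07 for TAP2. Between d14 and d3 it was 2.04 for CD74, 0.77 for TAP1, 0.70 for BF2, 0.57 for TAP2 and 0.41 for B2M. The last value comes from a probe set near the top of the range, and the dimmer B2M probe sets changed by 0.64 and 1.82 over the same span, as did a dimmer BF2 probe set by 1.89.

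Over the 7 age means, BF2 and B2M had a Pearson correlation of 0.992, and the 6 pairs among the class I genes lay between 0.952 and 0.992. CD74 and CIITA correlated at 0.863 with each other and at 0.693 to 0.836 with the class I genes. The CIITA probe set was below background up to d3, so its correlations rest mainly on d7 and d14. The age means come from the same arrays for all genes, and the values are a description only.

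Where a gene had several probe sets, they were compared in a fit with each probe set as its own feature. CD74 had 3, all bright. They shared the fall from e18 to e20, at −1.36, −1.36 and −2.80, and the rise between e20 and d14, at 4.28 ± 0.12, 4.70 ± 0.14 and 6.48 ± 0.21. The widest range was that of the probe set with the lowest mean, with means of 10.70 at e18, 7.89 at e20 and 14.38 at d14, and its steps of 3.15 at d3 and 2.60 at d7 were larger than any BF2 step. Between d14 and d7 the second brightest rose by 0.56 (adjusted p = 0.0461), while the others were not called. They did not share the step from hatch to d1: it was 0.31 on the brightest probe set (adjusted p = 0.0420), 0.22 on another (adjusted p = 0.215) and −0.58 on the one with the widest range (adjusted p = 0.0290). For this step the direction of CD74 is unsettled.

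BF2 had 4 probe sets of its own, and 3 more were listed for both BF1 and BF2 and were not used. BF1 is the neighbouring, closely similar class I gene, and the brightest BF2 probe set is of the kind whose probes can match other sequences, so BF1 transcripts may contribute to its signal. The second brightest was below background at e18 and e20 and averaged 7.32 ± 0.62 at d14 (SD, n = 4), at least 18.0-fold above e20 (adjusted p = 2.73e-07). At d3 it read 6.48, 7.75, 4.21 and 3.28, with arrays 1 and 2 above arrays 3 and 4. The third was at least 2.14-fold higher at d14 than at e20 (adjusted p = 1.33e-05), and the fourth did not pass the filter and was at or below background on all 28 arrays.

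**Figure D3:**
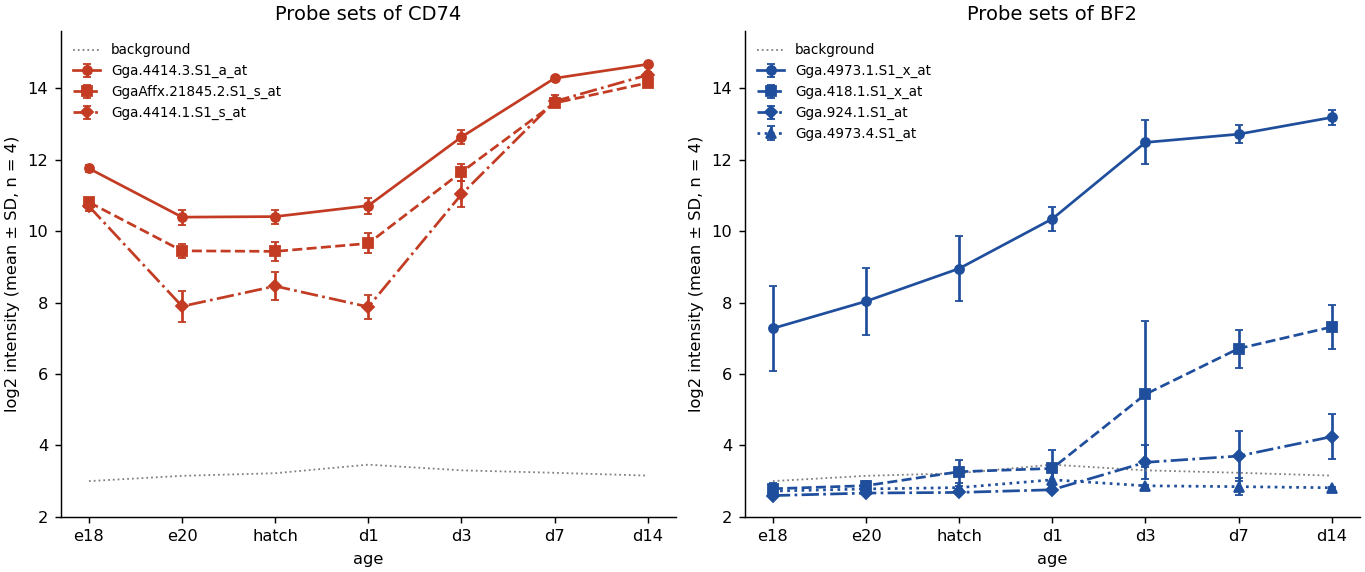
Mean log2 intensity ± SD (vertical axis, n = 4 arrays) at 7 ages (horizontal axis) for the 3 probe sets of CD74 (left) and the 4 of BF2 (right), with mean background dotted. All CD74 probe sets fall to e20 and rise from d3, with the widest range on the dimmest, and 1 BF2 probe set stays at background throughout.

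The other B2M probe sets were dimmer and rose as well. The second brightest averaged 8.15 at d14 against 4.66 at e20 (3.49 ± 0.20, adjusted p = 2.54e-13), with called steps to d1 (1.54) and d3 (1.23). The third was below background from e18 to d1 and averaged 5.32 ± 1.01 at d14, with readings of 4.39, 4.80, 5.39 and 6.71. It passed the filter only through d7 and d14, so that it had to differ between ages. It rose from d7 to d14 by 1.49 ± 0.28 (2.80-fold, adjusted p = 0.00830), unlike the brighter ones, whose steps of 0.18 and 0.33 were not called. The rise of B2M at hatch was seen on the brightest probe set and not on these, at 0.08 (adjusted p = 0.796) and −0.04 (adjusted p = 0.935). CIITA had 4 probe sets, and 3 of them did not exceed 4 on any array: 1 stayed between 3.00 and 3.50 and was above background on 23 of 28 arrays, including 4 of 4 at e18 and 3 of 4 at e20, and the others were below background. One of these carries another gene ID, 427676, which the RefSeq gene table does not hold.

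The neighbourhood of the MHC genes was described next. In the RefSeq gene order of the GRCg7b assembly, TAP1, TAP2 and BF2 are consecutive protein-coding genes on chromosome 16, with BF1 before TAP1 and complement gene C4 after BF2. B2M lies on chromosome 10, CD74 on 13 and CIITA on 14. Of the 13 protein-coding genes from BLB1 to CENPA on chromosome 16, 8 were tested, and between d14 and e20 7 rose, TAP1, TAP2 and BF2 among them, and 1 fell, where 27.2% of all genes were called higher. The class II beta chain BLB1 rose by 4.53 ± 0.12, DMA, a chain of the peptide exchange factor of class II, by 4.55 ± 0.21, and TAPBP (tapasin), which ties class I molecules to the transporter, by 3.06 ± 0.13. C4 averaged 7.29 at d14 against 5.79 at e20 (adjusted p = 1.15e-05), and BRD2, a chromatin reader within the same stretch, fell by 0.49.

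**Figure D4:**
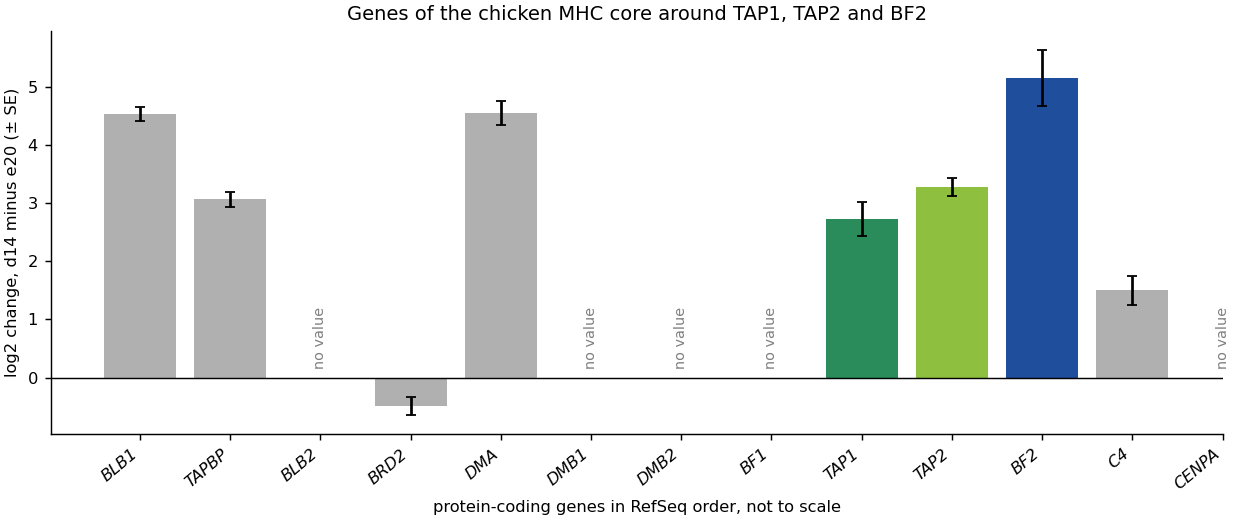
Log2 change between d14 and e20 (vertical axis, ± SE, 4 arrays an age) of 13 protein-coding genes in RefSeq order along chromosome 16 (horizontal axis, not to scale). Coloured bars are TAP1, TAP2 and BF2, grey bars other tested genes, and genes marked "no value" were not tested. Tested genes rise except BRD2.

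Partners of the class I genes did not all move with them. Of 20 genes listed for the class I pathway 11 were tested. Between d14 and e20 7 rose and 4 fell, with a median change of 1.45, where 27.2% of all genes were called higher. Besides BF2, B2M, TAP1 and TAP2, those that rose were TAPBP, the trimming peptidase ERAP1 (1.45 ± 0.23) and ERP44 (0.59 ± 0.09). Those that fell are general folding factors of the endoplasmic reticulum: HSPA5 (−0.96 ± 0.25), PDIA3 (−0.91 ± 0.24), CALR (−0.70 ± 0.21) and CANX (−0.46 ± 0.11). Against e18 instead, 7 rose and 0 fell, and CANX was 0.69 higher at d14. TAPBP had the same called steps as B2M, at hatch (0.76), d1 (0.52) and d3 (1.18), and none after d3.

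All 10 tested genes of the 18 listed for the class II pathway rose between d14 and e20, with a median of 2.98, against 27.2% of all genes. The 10 include CIITA, which passed the filter only through d7 and d14. BLB1 averaged 10.12 ± 0.13 at e20 against 10.73 ± 0.16 at e18 (SD, n = 4), a fall of 0.61 (adjusted p = 0.000150). It averaged 10.06 at hatch and 10.59 at d1, where its lowest array (10.32) lay above the highest at hatch (10.16). BLB1 then rose by 1.74 at d3 and 1.78 at d7, and averaged 14.11 at d7 and 14.64 at d14. For DMA no change was called from e18 to e20 (0.03 ± 0.21, adjusted p = 0.912). It rose by 0.64 at hatch, 1.02 at d3 and 2.07 at d7, and averaged 8.90 at d7 and 9.74 at d14. The endosomal enzymes that cut the invariant chain or its cargo rose less, with CTSS (cathepsin S) at 2.52 ± 0.12, LGMN at 2.52 ± 0.16, the thiol reductase IFI30 at 2.73 ± 0.15, CTSB at 1.24 ± 0.15 and CTSD at 0.96 ± 0.12. CD83, a surface protein of mature dendritic cells, rose by 4.00 ± 0.23.

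Among 13 tested regulators of 23 listed, 8 rose and 2 fell between d14 and e20, with a median of 0.31, where 27.2% of all genes were called higher. IRF1, an interferon-induced transcription factor that acts on class I promoters, rose by 3.77 ± 0.17 (adjusted p = 4.74e-15), with called steps at hatch (0.85), d1 (0.68) and d3 (1.57). SOCS1, an inhibitor of interferon signalling, rose by 3.30 ± 0.35, with called steps up at d3 (2.90 ± 0.35 over d1) and down at d7 (−1.07), and IRF7 rose by 2.37 ± 0.19. The constant partners of CIITA on class II promoters were tested as RFXANK (−0.02 ± 0.16) and RFXAP (−0.14 ± 0.16), neither called although RFXANK fell against e18, and as NFYB and NFYC, which fell by 0.59 and 0.68.

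Leukocyte markers were higher at d14 as well. Between d14 and e20, 4 of 4 tested markers of all leukocytes and 8 of 8 of macrophages and dendritic cells rose. So did 6 of 6 of T cells and 3 of 3 of B and plasma cells, against 27.2% of all genes. Only 6 of the 12 T cell markers and 3 of the 9 B and plasma cell markers on the array passed the filter. CD4, GZMA, JCHAIN, IGLL1, MARCO and TIMD4 did not exceed a log2 value of 4 before d3, and of the ages before d3 BTK exceeded it only at e18. The leukocyte marker ITGB2, with highest readings of 3.87 at e20 and 3.96 at hatch, exceeded it on too few arrays before d3 to pass. These genes passed the filter only through later ages, so that they had to differ between ages. The pan-leukocyte phosphatase PTPRC rose by 4.32 ± 0.16, the myeloid factor SPI1 by 4.63 ± 0.23 and the T cell receptor chain CD3E by 5.32 ± 0.22. The summed intensity of the leukocyte list was 2218 to 2591 at d14 against 163 to 244 at e20, and that of the macrophage and dendritic cell list 1469 to 1878 against 194 to 271. That list is counted without CTSS and CD83, which the class II list also holds. The joining chain JCHAIN and the immunoglobulin light chain gene IGLL1, defining B lineage markers, were below background at e20, hatch, d1 and d3 and averaged 11.33 and 11.94 at d14.

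Step by step the counts differed. At hatch against e20, 1 of 4 leukocyte markers and 0 of 8 macrophage and dendritic cell markers rose in limma's test. So did 3 of 6 T cell markers and 0 of 3 B lineage markers, against 19.2% of all genes. With CTSS and CD83 counted, 2 of 10 macrophage and dendritic cell markers rose, namely these 2. At an unadjusted p under 0.05, 2 of the 8 were higher and 1 lower, and 0 of the 3 were higher. At d1 against hatch, no marker of the 4 lists rose in limma's test, against 12.5% of all genes. Nor was any higher at an unadjusted p under 0.05, and 1 T cell marker fell. B2M and TAP2 rose at that step. BF2 rose with all arrays, but not without any 1 of the 4 arrays named above, nor on its other probe sets. Both erythroid genes rose at d1 and again at d3. At d3 against d1, 4 of 4, 7 of 8, 4 of 6 and 1 of 3 rose, beside 5 of the 6 genes and 15% of all genes. At d7 against d3, 4 of 4, 7 of 8, 5 of 6 and 3 of 3 rose, beside CD74 and CIITA and 5.07% of all genes. The markers that passed the filter only through later ages are among these counts. At d1 CD4, GZMA, IGLL1, JCHAIN, MARCO and TIMD4 averaged at or below background, where changes are understated. The mean log2 value over the leukocyte markers was 5.24 at e20, 5.55 at hatch and 5.84 at d1. The part of leukocyte numbers in the rises was not tested at any step. Of 7 epithelial markers, 6 rose between e18 and e20, 4 at hatch and 1 at d1, and limma called none at d3 or d7. At an unadjusted p under 0.05, 2 were higher and 2 lower at d3, and 1 was lower at d7.

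The high CD74 level at e18 stood beside other cell types as well. Between e20 and e18, when 25% of all genes were called lower, 5 of 8 macrophage and dendritic cell markers and 3 of 4 leukocyte markers fell. So did 3 of 6 T cell markers and 3 of 6 endothelial markers, besides all tested pancreas and erythroid genes. Of the endothelial markers 1 rose, VWF, which averaged 7.72 at e20 against 6.42 at e18. The summed macrophage and dendritic cell signal was 194 to 271 at e20 against 568 to 1049 at e18, and that of the erythroid genes 469 to 915 against 11950 to 15108. The brightest CIITA probe set was below background at both ages. The part of these cells in the CD74 level at e18 was not tested.

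**Figure D5:**
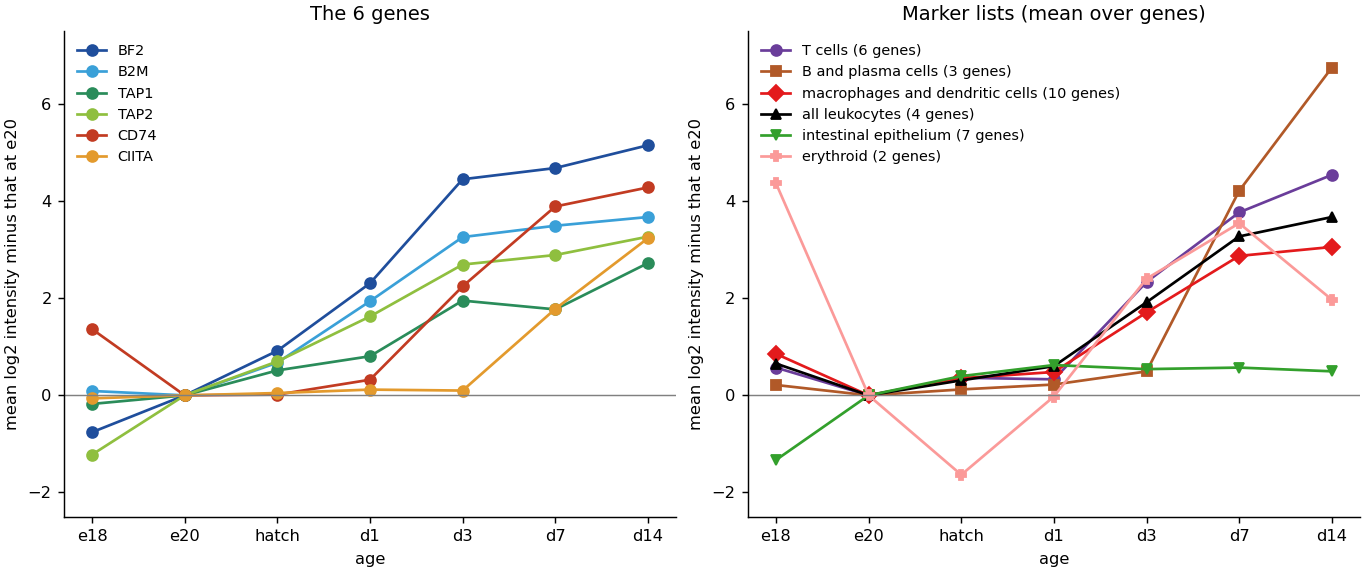
Mean log2 intensity minus that at e20 (vertical axis) over 7 ages (horizontal axis) for the 6 genes (left) and for the mean over the tested genes of each marker list (right). The macrophage and dendritic cell list here includes CTSS and CD83. At d1 BF2, B2M and TAP2 lie further above their e20 level than the mean of any leukocyte list does. CD83 alone, though, is 1.96 above its e20 level. At d1 CD4, GZMA, IGLL1, JCHAIN, MARCO and TIMD4 averaged at or below background, so changes of their lists may be understated. CD74 climbs at d3 and d7, as do the lists of all leukocytes, T cells, and macrophages and dendritic cells. The mean log2 value of the B and plasma cell list is 3.16 at d1, 3.43 at d3 and 7.15 at d7. CIITA climbs at d7.

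The genes whose 7 age means were most like those of each of the 6 were named by Pearson correlation, as a description. For BF2 they were EAF2 (0.999), the potassium channel subunit KCNE3 (0.998) and IRF1 (0.997). For B2M they were the ubiquitin ligase RNF114, LOC420552 and the lysosomal sulfatase GALNS (0.995 to 0.997), and for TAP1 BTN1A1, EPSTI1 and BIRC2 (0.989 to 0.994). At e20 LOC420552 averaged 2.33 and EPSTI1 2.77, below background, so their correlations rest mainly on the later ages. TAP2 was most like the kinase STK11, EXOC3L4 and the autophagy receptor CALCOCO2 (0.997 to 0.999). CD74 was most like the cytokine receptor CSF2RA, TBC1D8 and RGS18 (0.997 to 0.998), which were all lower at e20 than at e18, as CD74 was. CIITA was most like SH2D1B, JCHAIN and LOC769044 (0.999 or more). These 3 averaged only 2.55 to 2.78 at e20, and the CIITA probe set was below background up to d3. Its correlations therefore rest mainly on d7 and d14. Each value rests on 7 points taken from the same arrays, and the genes were picked from 8396 as the highest.

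The mean of d1 to d14 was also set against that of e18 and e20, and 5 of the 5 genes other than CIITA rose, against 34.1% of all genes. BF2 was higher by 4.53 ± 0.30, TAP2 by 3.23 ± 0.10, B2M by 3.05 ± 0.08, CD74 by 2.00 ± 0.07 and TAP1 by 1.90 ± 0.18. CIITA was below background at 4 of these ages, and no size is given for it.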

How the data were processed

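The deposited table of each array holds a linear intensity for every probe set. The submitters' processing notes name GCRMA, a method that subtracts background from probe sequence and combines probes, with no version and no word on joint processing. Low probe sets get nearly constant values, so changes near background are understated.

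Here log2 was taken. Control probe sets (153) were left out, and 27168 probe sets with 1 symbol were kept, while 177 with several were not named. For each symbol the brightest probe set over the 28 arrays stood for the gene. Genes over a log2 value of 4 in at least 4 arrays were tested, 8396 of 13009. Limma 3.58.1 in R 4.3.3 fitted 1 mean per age to all 28 arrays (lmFit, contrasts, eBayes, 21 residual and 3.13 prior degrees of freedom). Tests were two-sided and p-values were adjusted (Benjamini-Hochberg, all 8396 genes), with 0.05 as threshold. Where an age lay below background, the fold is a bound against background. No 2 arrays were identical, and correlations within an age, across genes, lay between 0.978 and 0.994. The number of arrays limits the precision. The code was tested on simulated data.

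The members and lists were chosen with earlier results of these data known. Named are the 6 genes, the 3 most risen and the 1 most fallen called gene of each list between d14 and e20, other genes of the 3 pathway lists where a sentence is about them, and the 3 most alike genes. C4 and BRD2 were named after their values were seen, and the counts without CIITA, CTSS or CD83 were chosen after seeing the data. The gene IDs of all 6 brightest probe sets were found in the RefSeq gene table. Alternatives covered filters, pseudocount, scaling, probe set choice, variance model, array weights, the e18 arrays and each array in turn.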

Additional observations from a re-analysis of the deposited data

Results flagged for a closer look

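In 42 sets of 4 arrays (6 genes at 7 ages), 3 held an array whose gap to the nearest of the others exceeded Dixon's critical value, and chance alone gives about 1 in 20. For TAP1 at e20, array 3 read 4.37 and the others 3.38 to 3.54. For TAP1 at d14, array 4 read 6.96 and the others 6.20 to 6.27. For CD74 at d14, array 2 read 14.62 and the others 14.69 to 14.70, a distance of little size.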

How the results depend on the processing

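No paired analysis was possible because the labels give arrays of different ages no shared numbers. For the 6 genes, only changes called in the main fit were followed. Of these, 323 of 327 recomputed under the alternatives and 359 of 368 recomputed without 1 array kept their direction and their call. Changes not called in the main fit are not in these counts, and some gained a call. At hatch against e20, where 2 genes were called in the main fit, up to 3 were called under the alternatives. At e20 against e18, with 2 in the main fit, up to 3 were called without 1 array. With the mean of a gene's probe sets, 1 gene was called at hatch against e20, where B2M lost its call (0.24, adjusted p = 0.162). At d1 against hatch 2 were called, and BF2 (0.44, adjusted p = 0.188) and CD74 (−0.02, a change of sign) lost theirs. The count was 1 at d7 against d3 and 2 at d14 against d7. That alternative mixes bright probe sets with ones at background, and CIITA did not pass its filter. With every probe set as a feature, 3 genes were called at d14 against d7, B2M and CD74 besides CIITA. The B2M call came from its dimmest probe set, which passed the filter only through d7 and d14. The CD74 step from hatch to d1 had an adjusted p of 0.0502 without the e18 arrays, and 0.0866 to 0.168 without 1 of hatch arrays 2 and 3 or d1 arrays 1, 3 and 4. Without 1 array in turn, 2 to 4 of the 6 were called at that step, 561 to 1353 genes in all at d7 against d3 (1130 with all arrays, 580 without d3 array 1, 561 without d7 array 3 and 650 without d7 array 4) and 34 to 117 at d14 against d7 (72 with all arrays, 43 without d7 array 1, 34 without d7 array 2 and 117 without d14 array 2). Signal near background limits TAP1, CIITA and the dim probe sets, and signal near the top of the range limits B2M and CD74 at d7 and d14.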
